A study of Homo sapiens with 6 samples.

Results

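The genes described here encode the enzymes that break down fatty acids in mitochondria and peroxisomes and the peroxins that build the peroxisome. The 37 genes were chosen by name for their place in these pathways and matched by Entrez gene identifier, and all 37 were found among the 20824 genes listed in any of the deposited tables. They formed a mitochondrial arm of 18 genes and a peroxisomal arm of 19 genes, the latter made of 7 enzymes and 12 peroxins.

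RNA sequencing had been done on A549 cells, a human lung adenocarcinoma line, in 2 groups of 3 libraries. The control group carried an sh-scramble hairpin, which the labels name as the wild type control, and the other group carried a hairpin against C19orf12. The labels give no treatment, time point or hairpin sequence, and the 3 knockdown titles differ only in their last number. They do not say whether the libraries of a group came from separate cultures, so the spread behind every p-value is that among these libraries and may be technical. C19orf12 encodes a membrane-associated protein that has been placed at mitochondria and the endoplasmic reticulum.

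In mitochondria, long-chain acyl groups enter on carnitine and are shortened by repeated rounds of dehydrogenation, hydration, a second dehydrogenation and thiolytic cleavage, with electrons leaving through the electron transfer flavoprotein. Peroxisomes shorten very long and branched acyl chains, make hydrogen peroxide at the first step and hold catalase to remove it. Their enzymes are made in the cytosol and imported by receptors that dock at the membrane, release their cargo and are recycled by the peroxins.

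The libraries held between 10229890 and 10647587 estimated reads and listed between 18286 and 18582 genes. C19orf12 stood at 42.5, 41.1 and 63.3 CPM (read counts scaled to a common library size) in scramble replicates 1, 2 and 3 and at 24.2, 26.4 and 25.2 CPM in the knockdown libraries (log2 fold change -0.95, standard error (SE) 0.20, adjusted p = 0.015 by edgeR). The call was lost without any 1 knockdown library, with adjusted p-values of 0.0908, 0.0755 and 0.0879 by edgeR. Scramble replicate 3 stood apart from the other scramble libraries, with a correlation of log2 CPM over genes of 0.952 and 0.953 against 0.991 between replicates 1 and 2. Without it the biological coefficient of variation fell from 18.9% to 2.97%, so log2 fold changes are given with all 6 libraries and, for most genes, also without it. Of the 13 epithelial and lung adenocarcinoma markers, 10 reached a mean of 1 CPM, with summed levels of 17880 to 20200 CPM in scramble and 25940 to 26430 CPM in knockdown libraries, and KRT8, KRT18 and KRT19 among them were called higher. NKX2-1, SFTPC and NAPSA, which mark differentiated alveolar type II cells, had means below 1 CPM in both groups. The surfactant gene SFTPB of the same list had means of 2.65 CPM in scramble and 3.06 CPM in knockdown libraries. Fibroblast markers summed to 36.7 to 47.8 CPM in scramble and 24.1 to 26.5 CPM in knockdown libraries, and COL1A1 alone of them reached a mean of 1 CPM. The immune markers summed to 39.9 to 53.8 against 50.9 to 56.1 CPM, with CD3E at 0. Most of these sums came from CD68, at 36.2 to 50.0 CPM in scramble and 46.8 to 52.7 CPM in knockdown libraries. The 5 endothelial markers summed to 2.81 to 4.18 against 3.40 to 4.07 CPM, with TEK at 0. The part of these marker levels in the results below was not tested.

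With all 6 libraries, catalase (CAT) and the mitochondrial dienoyl-CoA reductase DECR1 were called higher in the knockdown and no member was called lower. A gene was called changed where edgeR's quasi-likelihood test gave an adjusted p under 0.05 over all 14812 genes tested. By that rule 1 of 18 mitochondrial and 1 of 19 peroxisomal genes were called higher and 0 of either arm lower, beside 5.89% of all genes called higher and 5.64% called lower (11.5% in either direction). At an unadjusted p under 0.05 the members counted 5 higher and 2 lower, beside 1802 and 1961 of the 14812 genes. DESeq2 and limma-voom each called 3 members higher and 0 lower, beside 961 and 928 of all genes by DESeq2 and 891 and 768 by limma-voom. The share of members called by edgeR was not above that of all genes. All 37 passed the filter on low counts.

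Without scramble replicate 3 the picture was broader. Of the mitochondrial genes, 6 were called higher and 5 lower, and of the peroxisomal genes 7 were called higher and 4 lower. These 22 of 37 genes stand beside 25.7% of all 15029 genes called higher and 23.8% called lower in the same fit, or 49.5% in either direction. The median log2 fold change of the mitochondrial arm was -0.07 with all libraries and 0.10 without replicate 3, and that of the peroxisomal arm was -0.02 and 0.08. The medians of all genes tested were 0.02 and 0.00.

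**Figure D1:**
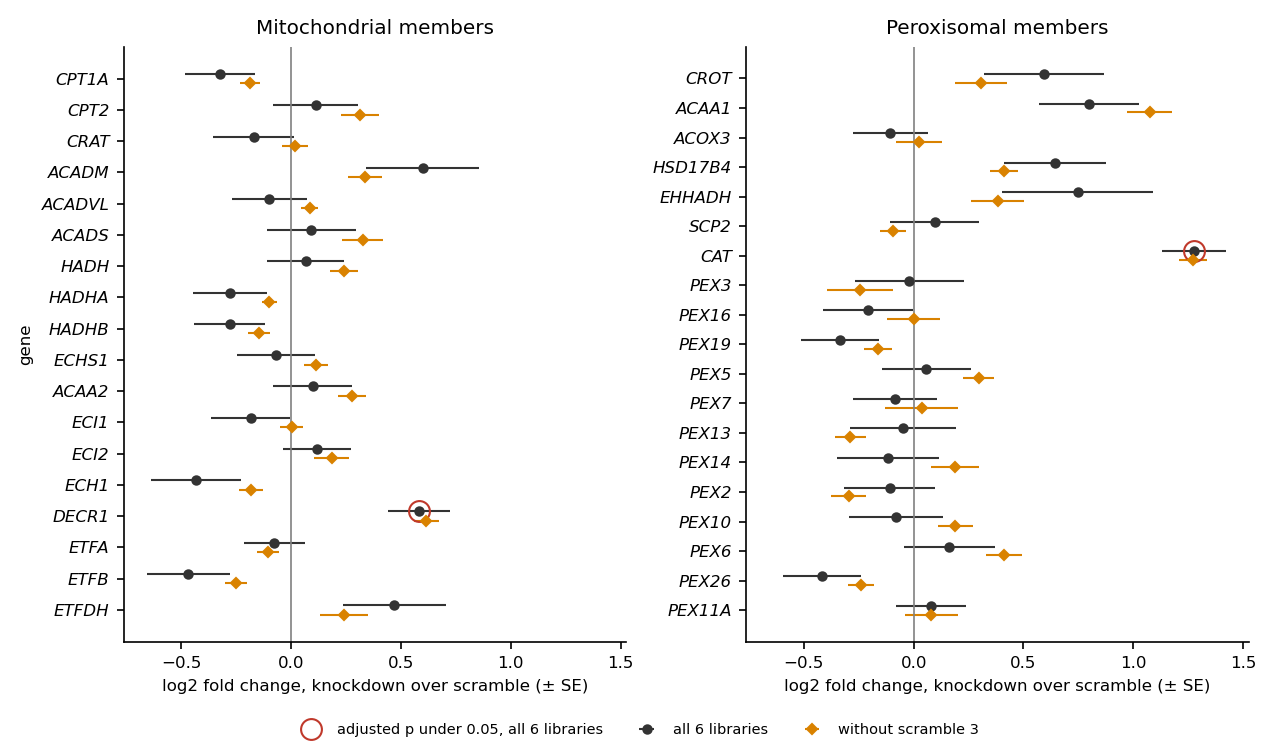
Log2 fold change (knockdown minus scramble) of the 37 members with its standard error, by role, with all 6 libraries and without scramble replicate 3; CAT at 1.28 and DECR1 at 0.58 are the members called with all 6 libraries.

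CAT, which breaks down the hydrogen peroxide made by peroxisomal oxidases, had the largest change of the members. Its scramble libraries measured 39.7, 37.4 and 38.2 CPM and its knockdown libraries 96.5, 89.8 and 92.8 CPM. The groups did not overlap, and scramble replicate 3 lay between the other scramble libraries. The level went from 38.4 ± 1.15 to 93.0 ± 3.38 CPM (SD, n = 3 each), a 2.42-fold rise (log2 fold change 1.28, SE 0.145, adjusted p = 0.00068 by edgeR). Without scramble replicate 3 the log2 fold change was 1.27, with an adjusted p of 1.24e-13 by edgeR, and CAT was called in each of the 14 alternative analyses run. In FPKM, fragments scaled to transcript length and library depth, CAT went from 17.0 ± 0.95 to 39.5 ± 1.44 (SD, n = 3 each). From these whole cultures, a change in the share of cells making a transcript and a change in transcript per cell cannot be told apart. This holds for CAT and for any other gene.

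The 250 bases before the CAT start site are shown because CAT was the member with the largest change (RefSeq, GRCh38.p14, chr11:34438684-34438933, plus strand, 5′ to 3′). Capitals mark matches to CCAAT, or its reverse complement ATTGG, and to the GC box GGGCGG.

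CAT: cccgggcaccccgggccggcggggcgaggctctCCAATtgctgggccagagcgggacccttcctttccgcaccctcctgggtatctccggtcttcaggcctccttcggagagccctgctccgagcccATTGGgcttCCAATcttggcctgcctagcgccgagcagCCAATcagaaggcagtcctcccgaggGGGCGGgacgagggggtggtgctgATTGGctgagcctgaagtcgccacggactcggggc

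The window held 5 CCAAT matches, beginning 217, 123, 114, 85 and 35 bases before the start, and 1 GC box from 59 to 54 bases before it. Windows were given for 29 of the 37 members and for 27305 genes in all. Of all windows 0.363% held 5 or more CCAAT matches, and 1 of the 29 members did. At least 1 CCAAT match on either strand was present in 33.0% of all windows and in 8 of the 29 members, and the GC box in 42.3% of all and 22 of the 29. Among windows of protein-coding genes the shares were 34.5% and 56.0%. A direct repeat of AGGTCA with 1 base (any base, N) between the copies, a form of the element bound by peroxisome proliferator-activated receptors (PPARs), matched none of the 29 members' windows and 0.0183% of all windows. The E-box CACGTG matched 6.49% of all windows and, among the members, that of PEX10 alone, and TATAAA matched 11.1% and that of ACADVL alone. TCAAGGTCA, a form of the element bound by estrogen-related receptors, and GCGC, any 2 bases, GCGC, a palindrome of the type bound by NRF1, matched none of the 29, beside 0.319% and 7.58% of all windows. All motifs were searched on both strands with exact letters, and a match is a description of sequence only.

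The other peroxisomal enzymes fell into a set with higher values in the knockdown and a pair with values close to scramble. ACAA1, the thiolase that ends the peroxisomal cycle for straight chains, measured 17.3, 13.4 and 25.1 CPM in scramble and 31.2, 31.2 and 34.6 CPM in knockdown libraries. All knockdown libraries were above all scramble libraries, and replicate 3 was the highest of the scramble group. The log2 fold change was 0.80 (SE 0.23), which missed the threshold with all libraries (adjusted p = 0.054 by edgeR), and 1.08 without replicate 3 (adjusted p = 9.95e-09). DESeq2 and limma-voom called it higher with all 6 libraries, with adjusted p-values of 0.0141 and 0.049. Exons of ACAA1 are overlapped by DLEC1 on the opposite strand.

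HSD17B4, the D-bifunctional protein that hydrates and oxidizes acyl chains in the peroxisome, measured 66.3, 61.4 and 35.4 CPM in scramble libraries. In the knockdown it measured 82.9, 80.8 and 91.1 CPM. Replicate 3 was the low library here, and the groups did not overlap. With all libraries HSD17B4 had a log2 fold change of 0.64 (SE 0.23, adjusted p = 0.113 by edgeR), and without replicate 3 one of 0.41 (adjusted p = 8.87e-06). EHHADH, the L-bifunctional protein, showed the same layout at a lower level, with 10.9, 9.93 and 3.39 CPM in scramble and 13.8, 13.4 and 13.5 CPM in knockdown libraries. The values gave 0.75 on the log2 scale (SE 0.345, adjusted p = 0.215 by edgeR), and 0.38 without replicate 3 (adjusted p = 0.012). CROT, which moves shortened acyl groups onto carnitine for export, measured 11.0, 11.5 and 5.13 CPM in scramble and 14.1, 14.3 and 13.3 CPM in knockdown libraries. Its values gave a log2 fold change of 0.59 with all libraries (adjusted p = 0.215 by edgeR) and 0.31 without replicate 3 (adjusted p = 0.0366). All knockdown libraries were again above all scramble libraries for EHHADH and CROT.

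ACOX3, an oxidase of branched-chain acyl-CoAs, measured 16.1, 15.2 and 20.1 CPM in scramble and 15.2, 16.3 and 16.3 CPM in knockdown libraries. SCP2, a sterol carrier whose longer form is a thiolase for branched chains, measured 69.5, 66.7 and 42.8 CPM in scramble and 62.01, 67.4 and 61.8 CPM in knockdown libraries. The groups overlapped for both, and neither was called with or without replicate 3 (log2 fold changes -0.11 and 0.10 with all libraries, 0.03 and -0.10 without it). Of the 7 enzymes, 6 had a log2 fold change above 0 and the median was 0.64, and 5 had knockdown libraries all above scramble, beside 18.4% of all genes tested. Without replicate 3, 5 of the 7 were called higher and 0 lower, beside 25.7% and 23.8% of all genes in that fit, with a median log2 fold change of 0.38.

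SCP2 differed between the groups in another readout, the mean transcript length that the tables give from the estimated mix of its isoforms. It was 2238, 2264 and 2219 bases in scramble and 2111, 2052 and 2114 bases in knockdown libraries, a mean difference of -148 bases or -6.61%. The groups did not overlap, with an exact 2-sided permutation p of 0.1, the smallest that 3 against 3 libraries can give. Among the 7518 genes with a varying length, 12.7% did not overlap between the groups and 0.585% were shorter by as large a share without overlap. The size behind the second share is that of SCP2 itself, so that share describes SCP2 and is not a test. Of the 25 members whose length varied, HSD17B4 (shorter by under 1%) and PEX5 (longer, 3237 to 3275 bases) were the other members without overlap. With SCP2, the share of these members without overlap was near that of all such genes. Exons of SCP2 are overlapped by the pseudogenes TUBBP10 on the same strand and AL445183.3 on the opposite strand.

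**Figure D2:**
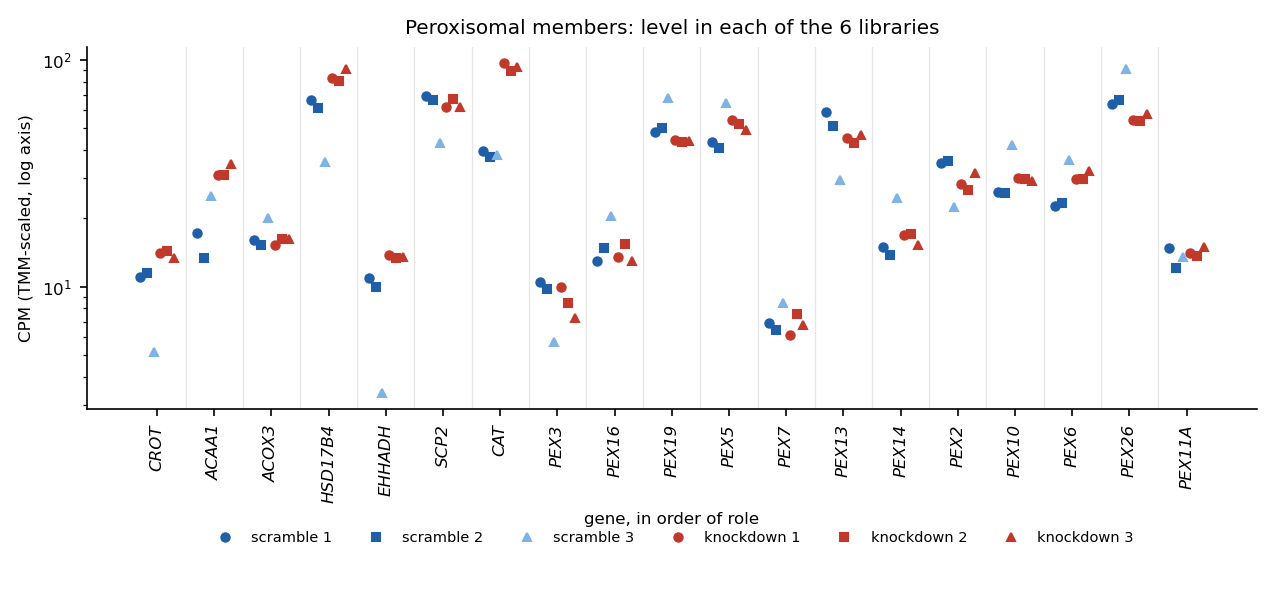
Expression (CPM, log axis) of the 19 peroxisomal genes in each of the 3 scramble and 3 knockdown libraries, scramble replicate 3 drawn apart; the knockdown points of CAT (89.8 to 96.5 CPM) are clear of its scramble points (37.4 to 39.7 CPM), and the peroxins lie close together or overlap.

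The peroxins showed no call in either direction with all 6 libraries, at an unadjusted p under 0.05 counted 0 higher and 1 lower, and gave 0 calls by DESeq2 and by limma-voom. Their log2 fold changes ran from -0.42 to 0.16 with a median of -0.08, and 9 of the 12 were below 0. Without replicate 3, 2 were called higher and 4 lower, a share close to the 49.5% of all genes called in either direction, and the median was 0.02. In 2 of the 12 all knockdown libraries were below all scramble libraries, beside 18.6% of all genes, and in none were they all above.

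PEX3, PEX16 and PEX19 insert proteins into the peroxisomal membrane. PEX19, the soluble receptor, measured 47.9, 50.2 and 67.9 CPM in scramble and 44.3, 43.6 and 43.8 CPM in knockdown libraries, without overlap. Its log2 fold change was -0.33 with all libraries (adjusted p = 0.285 by edgeR) and -0.16 without replicate 3 (adjusted p = 0.0428). PEX3, the membrane anchor of PEX19, measured 10.5, 9.75 and 5.71 CPM against 9.90, 8.49 and 7.25 CPM, and PEX16 measured 13.0, 14.9 and 20.4 CPM against 13.5, 15.4 and 12.9 CPM. Both overlapped between the groups and neither was called in either fit.

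PEX5 and PEX7 are the receptors that carry enzymes to the peroxisome. PEX5 measured 43.5, 40.8 and 64.9 CPM in scramble and 54.3, 51.9 and 48.9 CPM in knockdown libraries, so that the knockdown lay between replicate 3 and the other scramble libraries. Its log2 fold change was 0.06 with all libraries and 0.30 without replicate 3 (adjusted p = 0.901 and 0.00102 by edgeR). PEX7 stood at 6.41 to 8.43 CPM in scramble and 6.10 to 7.59 CPM in knockdown libraries and was not called in either fit.

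PEX13 and PEX14 form the docking site for the receptors. PEX13 measured 58.9, 50.9 and 29.5 CPM in scramble and 45.2, 42.9 and 46.6 CPM in knockdown libraries, and PEX14 measured 14.96, 13.7 and 24.6 CPM against 16.9, 17.0 and 15.2 CPM. Replicate 3 was the lowest library of all for PEX13 and the highest for PEX14. Without it PEX13 was called lower (log2 fold change -0.29, adjusted p = 0.00167 by edgeR), and PEX14 was not called.

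PEX2 and PEX10 are ring-finger ubiquitin ligases that mark the receptors for removal, and PEX6 and PEX26 belong to the ATPase and its membrane anchor that pull them out. PEX2 measured 35.1, 35.7 and 22.5 CPM against 28.3, 26.6 and 31.7 CPM, with a log2 fold change of -0.30 without replicate 3 (adjusted p = 0.0042 by edgeR). PEX10 measured 26.1, 26.0 and 42.3 CPM against 30.1, 30.0 and 29.1 CPM and was not called in either fit, at 0.0501 without replicate 3. PEX6 measured 22.8, 23.3 and 36.03 CPM against 29.7, 29.9 and 32.3 CPM, a log2 fold change of 0.16 with all libraries and 0.41 without replicate 3 (adjusted p = 0.691 and 0.000253 by edgeR). PEX6 had a positive and PEX2 a negative log2 fold change, both with and without replicate 3. PEX26 measured 63.8, 66.8 and 91.1 CPM against 54.4, 53.7 and 57.9 CPM without overlap, a log2 fold change of -0.42 with all libraries and -0.24 without replicate 3 (adjusted p = 0.181 and 0.0023 by edgeR). PEX11A, which elongates peroxisomes before division, measured 14.8, 12.1 and 13.5 CPM against 14.1, 13.6 and 14.9 CPM and was not called in either fit.

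DECR1, the reductase that lets double bonds of unsaturated acyl chains pass through mitochondrial oxidation, was the mitochondrial gene called higher with all 6 libraries. It measured 56.6, 54.0 and 59.2 CPM in scramble and 85.8, 82.0 and 86.3 CPM in knockdown libraries. The scramble libraries were close together, replicate 3 included, and the groups did not overlap. The level went from 56.6 ± 2.57 to 84.7 ± 2.37 CPM (SD, n = 3 each), a 1.497-fold rise (log2 fold change 0.58, SE 0.14, adjusted p = 0.0292 by edgeR). Without scramble replicate 3 the log2 fold change was 0.61 (adjusted p = 7.94e-09). The call was lost when any other single library was left out, with adjusted p-values of 0.0950 and 0.111 without scramble replicates 1 and 2, and 0.171, 0.1501 and 0.175 without knockdown replicates 1, 2 and 3.

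No other auxiliary enzyme for unsaturated chains was called with all 6 libraries. ECH1, a dienoyl-CoA isomerase, measured 131.3, 124.6 and 200.5 CPM in scramble and 120.5, 112.8 and 104.6 CPM in knockdown libraries, all knockdown libraries below all scramble libraries. Its log2 fold change was -0.43 with all libraries and -0.18 without replicate 3 (adjusted p = 0.221 and 0.00732 by edgeR). The enoyl-CoA isomerases ECI1 and ECI2 overlapped between the groups, at 88.9 to 130.9 against 89.9 to 95.1 CPM and at 25.7 to 30.1 against 29.01 to 31.5 CPM, and neither was called in either fit.

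Of the carnitine shuttle, CPT1A, which commits long-chain acyl groups to mitochondrial entry, measured 141.0, 138.9 and 181.7 CPM in scramble and 123.2, 125.8 and 119.3 CPM in knockdown libraries. The knockdown libraries were all below, with a log2 fold change of -0.33 with all libraries and -0.19 without replicate 3 (adjusted p = 0.244 and 0.00149 by edgeR). CPT2, its inner-membrane counterpart, measured 25.4, 21.6 and 34.1 CPM against 28.9, 29.6 and 29.1 CPM, with log2 fold changes of 0.11 and, without replicate 3, 0.31 (adjusted p = 0.779 and 0.00457 by edgeR). CPT1A had a negative and CPT2 a positive log2 fold change, both with and without replicate 3. CRAT, which handles short acyl groups, measured 67.8 to 102.1 CPM in scramble and 70.3 to 75.3 CPM in knockdown libraries and was not called in either fit.

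The acyl-CoA dehydrogenases take chains of differing length. ACADM, for medium chains, measured 31.8, 28.8 and 15.1 CPM in scramble and 35.9, 40.6 and 38.1 CPM in knockdown libraries, without overlap and with replicate 3 the lowest. Its log2 fold change was 0.60 with all libraries (SE 0.26, adjusted p = 0.182 by edgeR) and 0.34 without replicate 3 (adjusted p = 0.00113). ACADS, for short chains, measured 20.1, 18.2 and 29.3 CPM against 24.6, 23.4 and 23.9 CPM, and its log2 fold change was 0.09 and, without replicate 3, 0.32 (adjusted p = 0.826 and 0.00525 by edgeR). ACADVL, for very long chains, measured 221.6, 218.7 and 310.2 CPM against 230.0, 234.6 and 236.2 CPM and was not called in either fit.

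HADHA and HADHB encode the subunits of the trifunctional protein, which carries out the later steps on long chains. HADHA measured 350.6, 343.5 and 486.6 CPM in scramble and 330.0, 319.9 and 322.3 CPM in knockdown libraries, and HADHB measured 164.3, 150.2 and 203.1 CPM against 148.1, 140.3 and 137.7 CPM. All knockdown libraries were below all scramble libraries for both subunits, and both gave a log2 fold change of -0.28 with all libraries (adjusted p = 0.348 and 0.322 by edgeR). Without replicate 3 the values were -0.10 and -0.15 (adjusted p = 0.0245 and 0.0158 by edgeR). The start sites of HADHA and HADHB are 307 bases apart on opposite strands, so the windows before them share 194 bases, and they are shown for that reason. RefSeq on GRCh38.p14 places the HADHA window at chr2:26244633-26244882 on the minus strand and the HADHB window at chr2:26244689-26244938 on the plus strand. Each is printed 5′ to 3′ with GC box matches in capitals. The HADHA match and the first HADHB match are the same bases, read on opposite strands.

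HADHA: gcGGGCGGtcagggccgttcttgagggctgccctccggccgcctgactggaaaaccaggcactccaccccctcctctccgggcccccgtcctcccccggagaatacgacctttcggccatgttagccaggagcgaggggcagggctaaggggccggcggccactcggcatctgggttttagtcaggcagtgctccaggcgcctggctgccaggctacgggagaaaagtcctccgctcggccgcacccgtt

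HADHB: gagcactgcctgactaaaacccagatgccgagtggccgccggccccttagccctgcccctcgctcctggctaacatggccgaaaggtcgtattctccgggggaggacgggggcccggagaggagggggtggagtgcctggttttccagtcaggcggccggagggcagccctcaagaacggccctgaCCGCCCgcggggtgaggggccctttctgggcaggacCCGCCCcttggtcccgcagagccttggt

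The single-function enzymes of the same steps were not called with all 6 libraries. HADH, the hydroxyacyl-CoA dehydrogenase of shorter chains, measured 47.1, 45.5 and 64.2 CPM in scramble and 54.7, 55.1 and 54.2 CPM in knockdown libraries. ACAA2, the mitochondrial thiolase, measured 50.0, 48.7 and 69.0 CPM against 57.3, 62.3 and 59.7 CPM. In both the knockdown lay above scramble replicates 1 and 2 and below replicate 3, and of these fits the one without replicate 3 called both higher (log2 fold changes 0.24 and 0.28, adjusted p = 0.00278 and 0.000877 by edgeR). ECHS1, the short-chain hydratase, had the same layout at 95.1, 87.4 and 128.1 CPM against 99.5, 95.5 and 101.3 CPM and was not called in either fit.

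Electron transfer flavoprotein takes electrons from the dehydrogenases and hands them to ETFDH in the inner membrane. Its beta subunit ETFB measured 113.0, 109.2 and 165.6 CPM in scramble and 94.3, 94.8 and 91.1 CPM in knockdown libraries, without overlap. The log2 fold change of ETFB was -0.47 with all libraries and -0.25 without replicate 3 (adjusted p = 0.155 and 0.000192 by edgeR). The alpha subunit ETFA measured 175.3, 159.8 and 157.5 CPM against 161.3, 158.8 and 147.2 CPM, with overlap and no call in either fit. ETFDH measured 14.0, 16.1 and 8.43 CPM against 16.7, 19.4 and 17.3 CPM, all knockdown libraries above, and was not called in either fit (log2 fold change 0.47, and 0.24 without replicate 3).

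**Figure D3:**
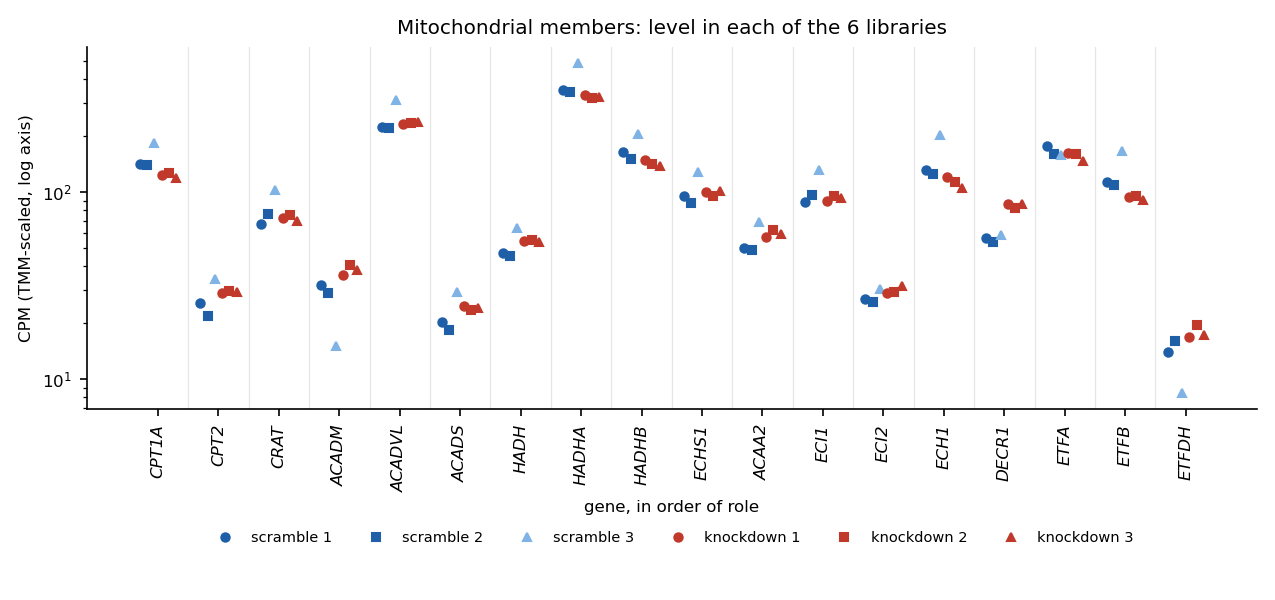
Expression (CPM, log axis) of the 18 mitochondrial genes in each of the 3 scramble and 3 knockdown libraries, scramble replicate 3 drawn apart; DECR1 separates the groups with replicate 3 beside the other scramble points, while for HADHA and ECH1 replicate 3 lies farthest from the knockdown.

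Across the members, 8 had all knockdown libraries above all scramble libraries and 7 had them all below, beside the 18.4% and 18.6% of all genes given above. In another 10, replicates 1 and 2 were below and replicate 3 above every knockdown library, a layout held by 11.1% of all genes. These 10 were CPT2, ACADVL, ACADS, HADH, ECHS1, ACAA2, PEX5, PEX14, PEX10 and PEX6. The sign of the log2 fold change differed between the fits with and without replicate 3 in 9 of 37 members and in 2916 of 14812 genes.

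Scramble replicate 3 departed from replicates 1 and 2 in a direction that went with base composition. Its log2 shift was above 0 in 26 members and below 0 in 11, with a median of 0.46, beside a median of 0.13 over all genes. Over the 36 members with a transcript GC content, the shift and the GC content had a Pearson r of 0.764 and a Spearman rho of 0.902, given as a description since the genes share their libraries. Over 14231 genes the values were 0.709 and 0.738. EHHADH (shift -1.49, transcript GC 44.5%), CROT (-1.06, transcript GC 39.2%) and ACADM (-0.98, 40.2%) were low in replicate 3, and ACAA1 (0.70, 58.8%) was high. CAT (-0.01, 45.2%) and DECR1 (0.10, 43.4%) shifted little, and so did PEX11A (0.01, 45.4%) and ETFA (-0.09, 42.3%). Other members near that GC lay on both sides of these. Examples are HSD17B4 (-0.84, 43.55%), ETFDH (-0.80, 44.5%), HADHB (0.37, 45.0%) and ACAA2 (0.48, 45.6%). The median GC was 44.5% for the peroxisomal enzymes, 49.9% for the peroxins and 49.6% for the mitochondrial arm, beside 49.4% for all genes. The part of GC content in the fold changes was not tested.

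**Figure D4:**
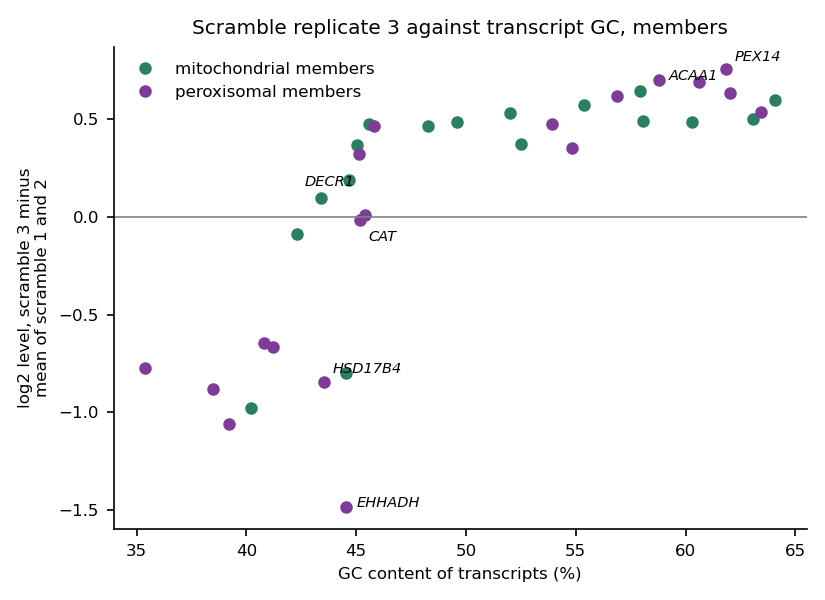
Log2 level in scramble replicate 3 minus that in the other scramble libraries (mean) against transcript GC content (percent), 1 point per gene of the 36 members with a GC value; the points rise from EHHADH and CROT at the lower left, and CAT and DECR1 lie near a shift of 0.

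Per transcript length, the mitochondrial genes were the more abundant. Mean scramble levels ran from 5.90 to 143.1 FPKM in the mitochondrial arm (median 38.2), from 2.13 to 27.3 FPKM in the peroxisomal enzymes (median 10.1) and from 3.20 to 17.9 FPKM in the peroxins (median 9.10). The knockdown medians were 46.6, 17.0 and 8.41 FPKM. The mitochondrial median fell between CRAT (29.8) and DECR1 (46.7) in scramble, and between ACAA2 (30.0) and HADHB (63.2) in knockdown libraries. The 2 medians thus rest on different genes across a wide gap in level. The median log2 fold change of that arm was -0.07 with all libraries. In scramble libraries the highest were ETFB at 143.1 ± 27.9, HADHA at 130.2 ± 20.5, ETFA at 126.0 ± 11.7, ECH1 at 122.0 ± 27.7 and ACADVL at 110.4 ± 17.5 FPKM (SD, n = 3 each). These neighbours in the order differed by less than their SDs. EHHADH was the lowest, at 2.13 ± 1.14 FPKM (SD, n = 3).

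The strand setting of the counting is not given in the sources used here, so reads of overlapping genes cannot be told apart. An exon of 15 of the 37 members is overlapped by a gene on the opposite strand in GENCODE v29. These include ACAA1, ACADVL with DLG4, CPT2 with C1orf123, CRAT with PTPA, ETFDH with PPID, PEX13 with PUS10, PEX14 with DFFA, PEX10 with RER1 and PEX6 with GNMT. An exon of 10 members is overlapped by another gene on the same strand, among them ACADM with RABGGTB, HSD17B4 with FAM170A and PEX26 with TUBA8. CAT and DECR1 have neither kind of overlap.

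Other genes of the same pathways gave a setting for these values. Of 49 further peroxisome genes, 42 were tested, and 5 were called higher and 0 lower with all libraries (6 higher and 3 lower at an unadjusted p under 0.05; DESeq2 and limma-voom each called 5 higher and 0 lower). Over all genes edgeR called 5.89% higher and 5.64% lower. ABCD3, a transporter of acyl-CoAs across the peroxisomal membrane, measured 48.2, 47.5 and 24.9 CPM against 81.7, 82.6 and 84.7 CPM (log2 fold change 1.05, adjusted p = 0.0232 by edgeR). Its log2 fold change was 0.79 without replicate 3. SLC27A2, a very long chain acyl-CoA synthetase, and AMACR, a racemase of branched acyl-CoAs, rose by 0.71 and 0.77 on the log2 scale (adjusted p = 0.0146 and 0.0185 by edgeR), and by 0.66 and 0.86 without replicate 3. LONP2, a peroxisomal protease, was also called higher and was named beyond the 4 genes with the smallest p. Its log2 fold change was 0.53 (adjusted p = 0.0455 by edgeR), and 0.49 without replicate 3. The LONP2 call was lost with upper-quartile scaling (adjusted p = 0.0669 by edgeR) and with no filter on low counts (0.0674). IDH1 and PECR, the most abundant genes of this list that were not called, had log2 fold changes of -0.02 and -0.22, and of -0.13 (called lower) and -0.10 without replicate 3. Without replicate 3, 12 of 43 tested genes were called higher and 9 lower, close to the 25.7% and 23.8% of all genes, with a median of -0.05. With any 1 knockdown library left out, the list held 1 call and none of these 4 named genes was called, and without scramble replicate 1 or 2 it held 3 or 2 calls.

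Of 27 further genes of mitochondrial fatty acid oxidation, 22 were tested, 2 called higher and 2 lower, beside 5.89% and 5.64% of all genes. SLC22A5, the plasma membrane carnitine transporter, went from 47.5 ± 7.77 to 78.6 ± 3.59 CPM and ACAT1, a ketone body thiolase, from 46.4 ± 3.86 to 70.7 ± 3.79 CPM (SD, n = 3 each; log2 fold changes 0.73 and 0.61, adjusted p = 0.0224 and 0.0309 by edgeR). ACAD11, a dehydrogenase of long chains, went from 48.0 ± 10.9 to 25.4 ± 1.39 CPM and ACSL1, a long-chain acyl-CoA synthetase, from 56.3 ± 2.17 to 35.4 ± 1.16 CPM (log2 fold changes -0.92 and -0.67, adjusted p = 0.0176 and 0.0178 by edgeR). Without replicate 3 the log2 fold changes were 0.87 for SLC22A5, 0.54 for ACAT1, -1.09 for ACAD11 and -0.70 for ACSL1. ACSL3 and ACOT13 were not called with all libraries (0.31 and -0.32), and stood at 0.01 and -0.21 (called lower) without replicate 3. In that fit 11 of the list were called higher and 3 lower, beside 25.7% and 23.8% of all genes. With any other single library left out, none of these genes was called.

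PPARs are nuclear receptors that control many of these genes, and 15 of 19 listed regulators and targets were tested. With all libraries 2 were called higher and 4 lower, and without replicate 3, 4 higher and 6 lower, to be read beside the same shares of all genes (5.89% and 5.64%, and 25.7% and 23.8%). PPARG itself fell from 24.1 ± 3.37 to 8.75 ± 0.615 CPM (SD, n = 3 each; log2 fold change -1.46, and -1.35 without replicate 3; adjusted p = 0.000895 by edgeR). ANGPTL4, a secreted lipase inhibitor, and TXNIP, an inhibitor of thioredoxin, fell by 1.00 and 1.41 on the log2 scale (adjusted p = 0.0131 and 0.000741 by edgeR). Without replicate 3 their log2 fold changes were -0.78 and -1.32. PDK4, the kinase that turns off pyruvate dehydrogenase, rose from 189 ± 76.8 to 466 ± 18.5 CPM (log2 fold change 1.30, and 1.00 without replicate 3; adjusted p = 0.0183 by edgeR). The remaining called genes were named beyond the 4 with the smallest p. They were the coactivator PPARGC1A (log2 fold change 1.39, 1.07 without replicate 3) and the lipid droplet protein PLIN2 (-1.15, and -0.99 without it). NCOR1 and RXRA, the most abundant of the uncalled genes, had log2 fold changes of 0.03 and -0.23, and of -0.24 (called lower) and -0.05 without replicate 3. With any 1 knockdown library left out, 0 genes of this list were called higher and 2 lower, TXNIP and PPARG.

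**Figure D5:**
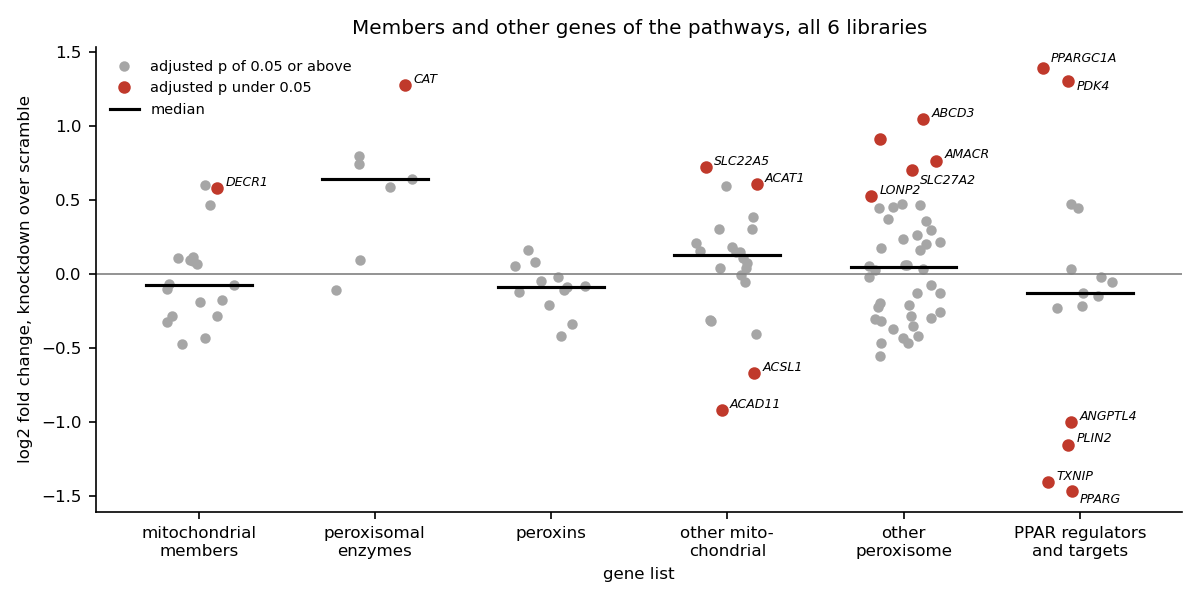
Log2 fold change (knockdown minus scramble) of each tested gene, 1 point per gene, in the member groups and the further lists, with the median of each list; the peroxisomal enzymes have a median of 0.64 and the peroxins one of -0.08.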

How the data were processed

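Poly(A) RNA from A549 cells was sequenced in 3 scramble and 3 C19orf12 knockdown libraries. The tools BWA, Bowtie2 and RSEM and the build hg19 are named per the submitters' processing notes, and the sources used here give no version, role or strand setting. Per the file headers, the authors deposited RSEM estimated counts, FPKM values and mean transcript lengths per Entrez gene, 1 table per library, listing only genes above 0; a gene missing from a table was taken as 0. Of 20824 identifiers, 20727 matched a symbol in the RefSeq table (GRCh38.p14), which was used for names only.

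These expected counts were rounded and tested with edgeR 4.0.16 in R 4.3.3: TMM scaling, filterByExpr (minimum count 10, minimum total 15), glmQLFit and glmQLFTest, and Benjamini-Hochberg adjustment over all 14812 genes that passed. SE is the absolute log2 fold change divided by the square root of F, and CPM are TMM-scaled. FPKM were used for levels per length only. Transcript GC came from GENCODE v29 transcripts matched by RefSeq accession. The fit was repeated with RLE and upper-quartile scaling, other count filters, a replicate block, DESeq2 1.42.0, limma-voom (limma 3.58.1) with and without library quality weights, and without each library. The fit was tested on simulated counts.

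The 37 members and the further lists were chosen with earlier results of these data known. Of the further lists, the named genes were the called genes with the smallest p, up to 4 a list. Up to 2 uncalled genes with the highest mean CPM were also named. LONP2, PPARGC1A and PLIN2 were named beyond the limit of 4. All these genes were thus chosen by their values in these data. One called gene of the further peroxisome list and one marker are counted but not reported here. Library totals were 10229890 to 10647587. No pair of replicate tables was the same within counting noise (chi-square per degree of freedom of 1.59 or more). That value cannot tell separate cultures from repeat libraries of the same culture. Each library was counted as a sample, as labelled.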

Additional observations from a re-analysis of the deposited data

How the results depend on the processing

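RLE and upper-quartile scaling and a minimum of 1 CPM in 3 libraries left the direction and call of all 37 members in place. CAT kept its call in all 14 alternatives (log2 fold change 1.24 to 1.30). Replicate numbers did not pair the libraries (same-numbered deviations correlated at -0.024, -0.018 and -0.023, and no scramble library correlated best with its own number). With a replicate block, DECR1 lost its call (adjusted p = 0.0908 by edgeR) and ACAA1 gained one (0.0207), so mitochondrial genes called higher went from 1 to 0 and peroxisomal ones from 1 to 2. ACAT1, ACSL1 and LONP2 also lost their calls with the block (adjusted p = 0.0803, 0.0528 and 0.131). No filter on low counts, DESeq2 and limma-voom also gave 2 peroxisomal genes called higher, the added one being ACAA1. Library quality weights called 3785 genes higher and 3542 lower, against 873 and 835. With them 6 mitochondrial genes were called higher and 4 lower, and 7 peroxisomal genes higher and 3 lower.

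Leaving out 1 library gave 460 to 3857 genes called higher and 269 to 3582 lower, the highest counts without scramble replicate 3. For mitochondrial genes the ranges were 0 to 6 higher and 0 to 5 lower, and for peroxisomal genes 1 to 7 higher and 0 to 4 lower. The log2 fold change of C19orf12 ran from -1.08 to -0.73.

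Some small log2 fold changes turned sign. PEX3 and PEX13 stood at 0.009 and 0.004 with the block and at 0.018 and 0.009 with limma-voom. Quality weights gave CRAT 0.016, ACADVL 0.079, ECHS1 0.108, ACOX3 0.018, SCP2 -0.09, PEX7 0.023, PEX14 0.179, PEX10 0.183 and NCOR1 -0.229. Leaving out 1 library gave ranges of -0.035 to 0.313 for CPT2, -0.301 to 0.017 for CRAT, -0.196 to 0.085 for ACADVL, -0.049 to 0.325 for ACADS, -0.034 to 0.24 for HADH, -0.185 to 0.114 for ECHS1, -0.001 to 0.276 for ACAA2, -0.304 to 0.002 for ECI1, -0.194 to 0.025 for ACOX3. In the same way the ranges were -0.095 to 0.21 for SCP2, -0.244 to 0.133 for PEX3, -0.076 to 0.295 for PEX5, -0.175 to 0.037 for PEX7, -0.289 to 0.15 for PEX13, -0.282 to 0.189 for PEX14, -0.211 to 0.19 for PEX10, -0.001 to 0.143 for PEX11A, -0.134 to 0.038 for IDH1, -0.239 to 0.188 for NCOR1. The cause was not tested. The further lists were run under these alternatives after seeing the data. Depth limits the genes of lowest level most: EHHADH had 34.6 estimated reads in scramble replicate 3.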
